A study of Mus musculus with 14 samples.

Results

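*Gnas*, *H13*, *Mcts2*, *Nnat* and *Blcap* are genes of chromosome 2 that are imprinted or share a locus with an imprinted gene, and their transcripts were read in 14 samples of mouse E4.0 blastocysts. The members were chosen by name: every probe of the array that is not a control and whose gene name in the scanner files is one of these 5 genes. This gave 16 of 41174 gene probes, with 8 for *Gnas*, 3 for *H13*, 1 for *Mcts2*, 1 for *Nnat* and 3 for *Blcap*. No measured value entered the choice of probes for these genes, but the genes were chosen with earlier results of these data known.

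The samples were 4 clones made by fusing a cumulus cell with an enucleated oocyte (fusion clones), 4 clones made by injecting a cumulus cell nucleus (injection clones), 3 male IVF-derived and 3 female IVF-derived embryos. All clones are labelled female, and all embryos were cultured in KSOM medium. The study's methods name BDF1 oocyte donors, and nuclear donors that carry 1 knockout allele of *Xist* on a BDF1 background, but the labels of these blastocysts give no genotype or strain. The extraction text of the labels speaks of parts of single embryos of a later stage, so whether a blastocyst sample was 1 embryo is not given, and the p-values measure only the spread between these samples. Amplified RNA labelled with Cy3 was hybridized to Agilent arrays of 1 color, and a level is the log2 of the quantile-normalized intensity, with a floor of 16 before the log (4.0 on the log2 scale). Levels of different probes cannot be set against each other, since each probe binds with its own strength.

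In an imprinted gene the copy inherited from one parent is expressed and the other is silent, and the silencing is tied to DNA methylation set in the germ line. *Gnas* is a complex locus in which several first exons, each with its own start, splice onto the same downstream exons. The most upstream start gives Nesp55 from the maternal copy, the next gives XL-alpha-s from the paternal copy, exon 1A gives a noncoding RNA from the paternal copy, and the most downstream start gives Gs-alpha, the G protein subunit that couples receptors to adenylyl cyclase. *H13* encodes signal peptide peptidase, which cleaves remnants of signal peptides in membranes. *Mcts2* is a retrogene inside an intron of *H13*, copied from the X-linked *Mcts1* and expressed from the paternal copy. On the copy where *Mcts2* is active, *H13* transcripts end upstream of it, and on the other they run on to sites downstream. *Nnat* encodes neuronatin, a small membrane protein of the endoplasmic reticulum, is expressed from the paternal copy and lies inside an intron of *Blcap*, a gene of the opposite strand with a role in restraint of cell growth.

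In RefSeq's annotation of GRCm38.p6, *H13* covers chr2:152669422-152708668 and *Mcts2* lies inside it at chr2:152687148-152687946. *Blcap* covers chr2:157556362-157566361 with *Nnat* inside it at chr2:157560078-157562525, and *Gnas* covers chr2:174284320-174346744. The 250 bases before a start site are shown for 3 starts of *Gnas* and for the nested pair of *H13* and *Mcts2*, because the probes below are compared by transcript and by locus. Capitals mark the letters TATAAA (the TATA box), CCGGAAG (a core of ETS factor motifs) and GGGCGG (GC box), searched on both strands. No match in these windows overlaps another.
Gnas, most upstream start (chr2:174284070-174284319, plus strand): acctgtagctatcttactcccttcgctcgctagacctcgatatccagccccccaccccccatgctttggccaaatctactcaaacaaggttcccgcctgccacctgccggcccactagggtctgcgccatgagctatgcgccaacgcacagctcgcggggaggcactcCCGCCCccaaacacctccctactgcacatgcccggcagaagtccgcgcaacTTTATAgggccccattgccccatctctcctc
Gnas, exon 1A start (chr2:174327499-174327748, plus strand): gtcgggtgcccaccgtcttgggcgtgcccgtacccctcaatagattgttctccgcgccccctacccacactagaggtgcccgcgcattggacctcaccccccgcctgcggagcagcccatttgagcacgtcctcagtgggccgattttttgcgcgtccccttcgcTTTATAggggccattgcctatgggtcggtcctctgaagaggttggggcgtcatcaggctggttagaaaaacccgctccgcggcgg
Gnas, Gs-alpha start (chr2:174329756-174330005, plus strand): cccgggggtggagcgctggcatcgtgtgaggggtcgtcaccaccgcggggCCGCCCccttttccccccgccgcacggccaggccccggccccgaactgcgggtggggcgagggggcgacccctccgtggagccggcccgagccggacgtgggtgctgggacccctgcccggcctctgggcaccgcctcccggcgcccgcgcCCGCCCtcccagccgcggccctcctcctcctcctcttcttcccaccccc
H13 (chr2:152669211-152669460, plus strand): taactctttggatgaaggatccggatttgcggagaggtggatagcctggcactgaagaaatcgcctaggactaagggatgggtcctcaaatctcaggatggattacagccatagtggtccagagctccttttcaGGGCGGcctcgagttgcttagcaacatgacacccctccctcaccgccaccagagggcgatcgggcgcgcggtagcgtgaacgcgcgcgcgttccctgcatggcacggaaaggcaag
Mcts2 (chr2:152686898-152687147, plus strand): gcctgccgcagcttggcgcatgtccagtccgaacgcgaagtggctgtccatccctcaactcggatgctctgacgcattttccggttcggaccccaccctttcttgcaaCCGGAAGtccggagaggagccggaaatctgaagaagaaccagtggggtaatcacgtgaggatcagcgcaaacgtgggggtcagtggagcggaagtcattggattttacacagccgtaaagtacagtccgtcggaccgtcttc
The most upstream and the exon 1A windows hold TATAAA on the opposite strand (printed as TTTATA), starting 31 and 85 bases before the start. The Gs-alpha window holds none and has GGGCGG, also on the opposite strand (printed as CCGCCC), at 200 and 49 bases. The most upstream window holds GGGCGG as well, on that strand at 82 bases. *Mcts2* has CCGGAAG 142 bases before its start and *H13* has GGGCGG at 116. Of all 32851 RefSeq windows of that length, 12.37% hold TATAAA, 6.91% hold CCGGAAG and 32.74% hold GGGCGG, so that these matches are a description and not sites. The windows are rich in CpG, with 14, 21 and 29 CpG for the 3 *Gnas* starts, 18 for *H13* and 20 for *Mcts2*, where the median of all windows is 6. The *Nnat* and *Blcap* windows hold 12 each.

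Across the arrays, 57.45% to 65.22% of gene spots were well above background, and the correlation of any pair of arrays was 0.9078 to 0.9731. Each group lay on a slide of its own, and clones and IVF-derived embryos were scanned on different scanners, so that the slides cannot be separated from the groups. The scanner software also differed, and 0 gene spots of the clone arrays but 6790 to 9981 of each IVF array had a processed intensity below 0. No member spot was saturated. The 4 epiblast and 6 trophectoderm markers on the array were well above background on every array of every group. Of these *Elf5*, a transcription factor of trophectoderm, fell in fusion clones against female embryos (log2 difference -2.96, limma adjusted p = 0.0160). It makes up 16.7% of the 6 trophectoderm markers, where 9.49% of all tested probes passed. In injection clones *Elf5* was at -3.65 (limma adjusted p = 0.0664), and no other marker of either lineage passed in any comparison. Of 10 cumulus cell markers, which could come with the donor cell, 0 to 2 per group were above background on every array, and their summed intensity was 167.5 to 254.1 in fusion clones, 167.1 to 237.2 in injection clones, 327.5 to 693.0 in male and 272.4 to 576.9 in female IVF-derived embryos. Among these, *Lhcgr*, the receptor of luteinizing hormone, was above background on no array of any group. Of 6 primitive endoderm markers, 6 were above background on every array of each IVF group and 3 in each clone group.

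**Figure D1:**
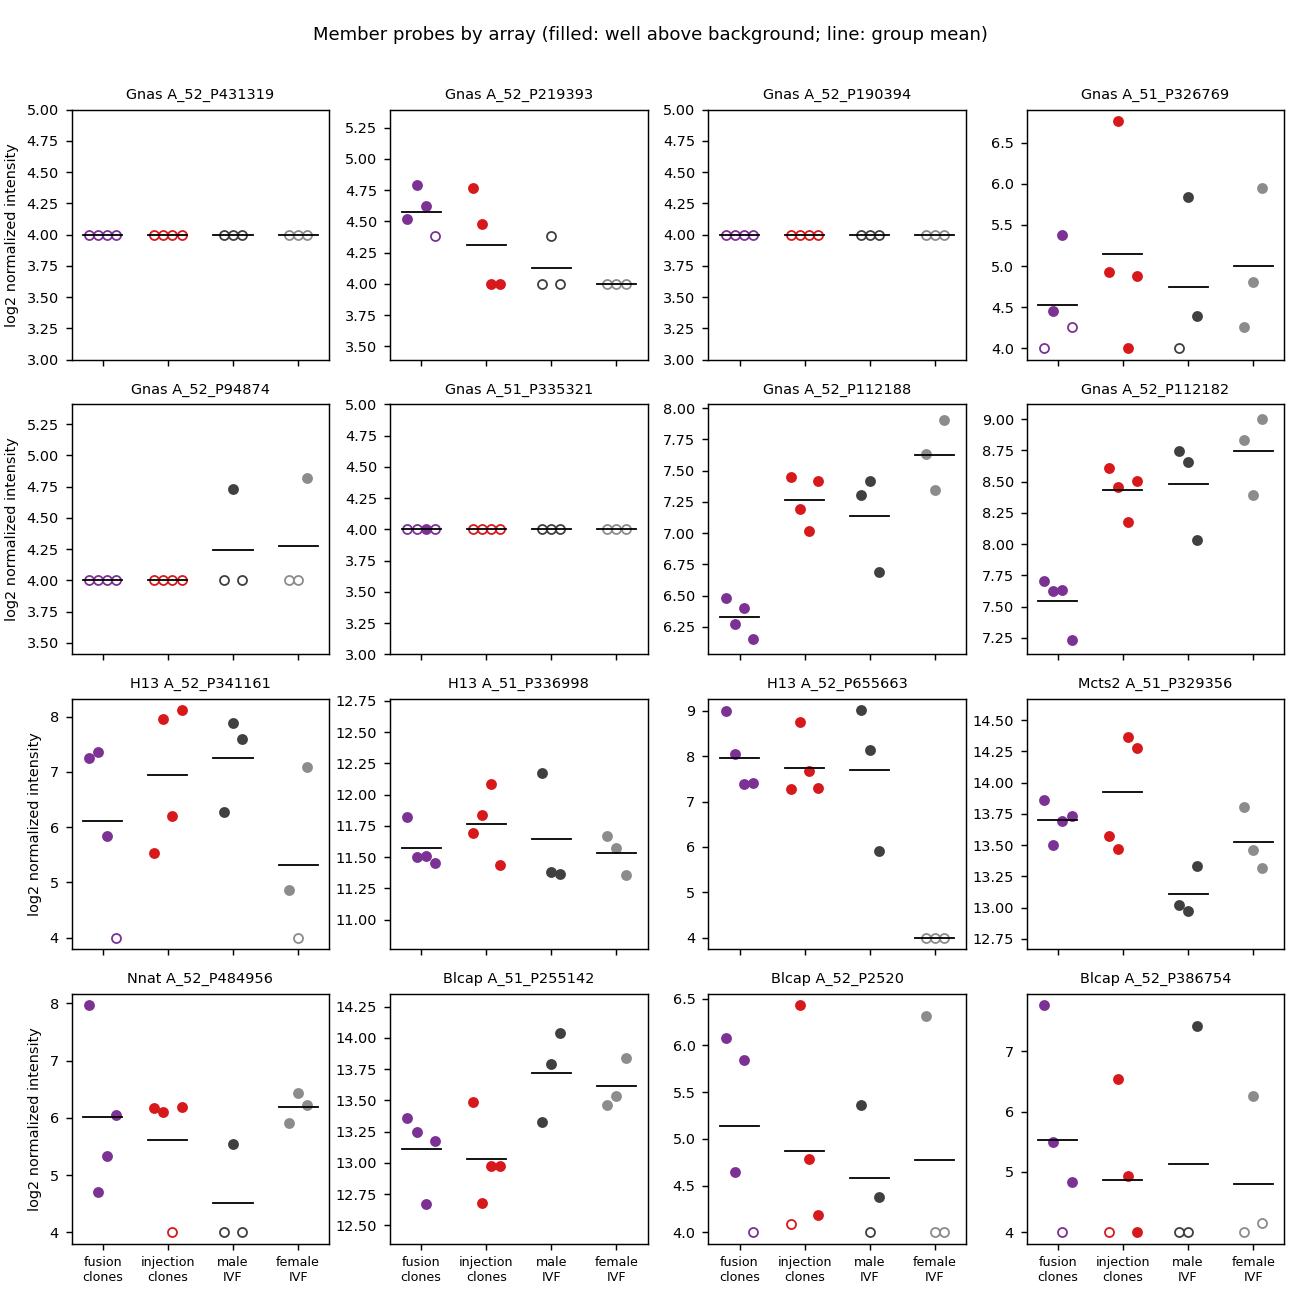
Level of each member probe on each array (y axes, log2 normalized intensity, 1 panel per probe) by group (x axes). Filled points are well above background, open points are not, and lines are group means. The 4 fusion clones lie below all others for the *Gnas* probes A_52_P112188 and A_52_P112182, and the 3 female IVF-derived embryos lie at the floor for the *H13* probe A_52_P655663.

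The *Gnas* probes are spread over the locus, and 2 of the 8, at its downstream end, were above background on every array. The probe positions in the files come with no genome build, so only distances between probes are given. A_52_P112188 and A_52_P112182 lie 57.28 and 57.50 kb downstream of the most upstream probe, in exons shared by the coding transcripts. Each is a 60-base probe listed over a longer stretch, 162 and 1330 bases, and so crosses an intron.

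A_52_P112182 was at 7.70, 7.63, 7.64 and 7.23 in the fusion clones and at 8.61, 8.46, 8.18 and 8.50 in the injection clones. It was at 8.75, 8.66 and 8.04 in male and at 8.84, 8.39 and 9.0 in female IVF-derived embryos. Every fusion clone thus lay below each of the other 10 samples, and the other 3 groups overlapped. A_52_P112188 was at 6.48, 6.27, 6.40 and 6.15 in the fusion clones and at 7.45, 7.19, 7.02 and 7.42 in the injection clones. It was at 7.31, 7.42 and 6.69 in male and at 7.63, 7.34 and 7.91 in female IVF-derived embryos. Here too the fusion clones were apart and the others overlapped. Over all 14 arrays the levels of these probes correlated at r = 0.98, and at 0.94 after the mean of each group was taken out, which is a description of probes that share transcripts and arrays. Of 17964 probes well above background on all arrays, 123 (0.685%) were likewise lower on every fusion clone array than on any other.

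Against female IVF-derived embryos, the matched control, both probes fell in fusion clones. A_52_P112182 went from 8.74 ± 0.32 (SD, n = 3) to 7.55 ± 0.21 (SD, n = 4), a log2 difference of -1.20 (standard error 0.22) or 2.29-fold, and limma's test with Benjamini-Hochberg adjustment gave an adjusted p of 0.0263. A_52_P112188 went from 7.63 ± 0.28 to 6.33 ± 0.15, a log2 difference of -1.30 (standard error 0.19) or 2.46-fold, with a limma adjusted p of 0.0160. In injection clones, set against the same 3 female samples, the differences were -0.31 (95% interval -0.79 to 0.17, adjusted p = 0.415 in limma) and -0.36 (-0.83 to 0.11, adjusted p = 0.331). Male IVF-derived embryos differed from female ones by -0.26 (limma adjusted p = 0.755) and -0.49 (adjusted p = 0.702). Without fusion clone 2 both probes missed the threshold in fusion clones, with limma adjusted p-values of 0.0681 for A_52_P112182 and 0.0514 for A_52_P112188. A_52_P112182 alone also missed it without any other fusion clone or without female embryo 1 or 3 (limma adjusted p = 0.0550 to 0.0700).

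Between the 2 cloning methods, the fusion clones were lower, with a log2 difference of -0.89 (standard error 0.15) for A_52_P112182 and of -0.94 (standard error 0.13) for A_52_P112188, that is 1.85-fold and 1.92-fold. In limma's test the unadjusted p was 0.000499 and 0.000203, and the adjusted p was 0.390 for both, so that neither passed. These probes account for the 2 of 13 tested members whose clone groups did not overlap, where 3.31% of all tested probes did not. No member and 0% of the 32303 probes tested were called between the methods in limma's test, 1993 probes having an unadjusted p below 0.05. At the rule of the study's methods, an unadjusted p below 0.05 and at least a 2-fold difference, 0 members and 2.38% of probes passed.

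The other 6 *Gnas* probes were above background on 0 to 11 of the 14 arrays. A_52_P219393, which the files give as transcript variant 3, is the most upstream, at the end of the locus where the Nesp55 transcripts start. It was at 4.52, 4.79, 4.62 and 4.38 in fusion clones and at 4.77, 4.48, 4.0 and 4.0 in injection clones. It was at 4.0, 4.38 and 4.0 in male IVF-derived embryos and at the floor in all 3 female ones. It was well above background in 3 fusion clones, 4 injection clones and no IVF-derived embryo. Fusion clones were at least 1.49-fold above female embryos (limma adjusted p = 0.0720) with the dim side set to the floor of 16, since on every array the lowest signal marked as above background lay at that floor. The mark and the intensity did not go together here, as injection clone spots at 15.8 and 15.4 before normalization were marked as above background and a spot of a male embryo at 16.8 was not. Whether the difference in software between clone and IVF arrays has a part in this was not tested. The direction was opposite to that of the shared exons, and all 4 fusion clones lay above all 3 female samples, but the probe did not pass. With no filter on dim probes it passed (limma adjusted p = 0.0341), with the female samples still at the floor.

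A_51_P326769, which the files describe as XL-alpha-s, lies 17.40 kb from the most upstream probe and was above background on 11 arrays. It was at 4.0, 4.46, 5.38 and 4.26 in fusion clones, at 4.93, 6.76, 4.0 and 4.88 in injection clones, at 4.0, 5.84 and 4.39 in male and at 4.25, 4.81 and 5.94 in female IVF-derived embryos. All groups overlapped, and the spread within a group was up to 1.16 (SD). A_52_P190394 at 15.59 kb and A_52_P431319, with no position in the files, were above background on 0 arrays. The former is listed under the same RefSeq transcript as A_52_P112188, which was above background on all 14 arrays. A_52_P94874 at 44.13 kb was above background on 2, male embryo 2 (4.73) and female embryo 3 (4.82). A_51_P335321 at 48.42 kb, which the files describe as a noncoding transcript overlapping exon 1A, was above background on 1 array and at the floor on all. For these 4 probes no comparison of levels can be made.

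**Figure D2:**
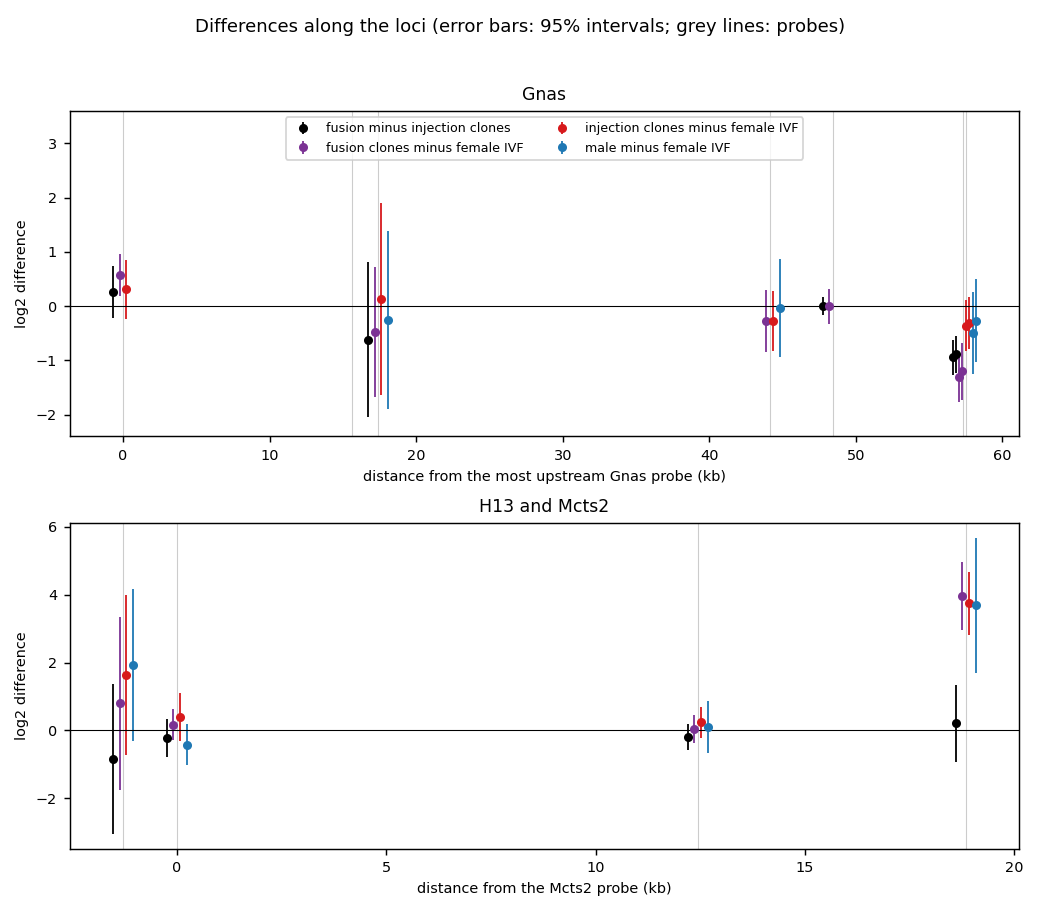
Log2 difference of each tested probe (y axes) against distance along the locus in kb (x axes), for *Gnas* (top) and for *H13* and *Mcts2* (bottom). Points are the 4 comparisons, shifted sideways for legibility, bars are 95% intervals from limma and grey lines mark probe positions. The fusion clones are below 0 at the shared *Gnas* exons near 57.28 kb, and the comparisons with female embryos are above 0 at the *H13* probe 18.84 kb downstream of *Mcts2*.

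Probes of the locus were compared within each array, as the difference of 2 probes on the same array, with a two-sided exact permutation test over arrays. Over all 23 pairs and comparisons run, 0 had an adjusted p below 0.05. The smallest possible exact permutation p was 0.0286, or 0.1 for male against female embryos. After adjustment over 23 tests, 1 pair alone could not have passed, so that this count cannot show a lack of shifts. The most upstream probe minus A_52_P112188 was higher in fusion than in injection clones by 1.21, and minus A_52_P112182 by 1.15. Each had an exact permutation p of 0.0286, the smallest that 4 against 4 arrays allow, and an adjusted p of 0.329. Both shifts largely carry over the differences of the shared exons given above (-0.94 and -0.89). The most upstream probe lay near the floor, at 4.0 in injection clones 3 and 4, and could hardly fall with them. The difference between A_52_P112188 and A_52_P112182 themselves was -0.05 in that comparison (exact permutation p = 0.457). A_51_P193053, listed on the opposite strand 61.34 kb from the most upstream probe, is no member, since its name in the files is not *Gnas*. It was at 6.28, 6.06, 6.0 and 6.15 in fusion clones, at 7.22, 7.11, 6.42 and 6.72 in injection clones, at 8.12, 8.22 and 7.29 in male and at 7.73, 7.28 and 8.01 in female IVF-derived embryos. It was lower in fusion clones than in female embryos (log2 difference -1.55, standard error 0.21, limma adjusted p = 0.0126) and did not overlap the injection clones either (-0.74, adjusted p = 0.591). The injection clones also lay below every IVF-derived embryo, at -0.81 from female ones (limma adjusted p = 0.152). A_52_P501340 at 37.35 kb and A_52_P1180933 at 40.97 kb, also no members, were above background on 13 and 9 arrays. They did not fall in fusion clones against female embryos. Their log2 differences there were 0.85 (limma adjusted p = 0.609) and 0.04 (adjusted p = 0.991), and all groups overlapped.

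At *H13* the 3 probes gave different pictures. A_51_P336998 lies 12.44 kb downstream of the *Mcts2* probe and is listed over 4413 bases, across an intron. It was at 11.82, 11.50, 11.51 and 11.46 in fusion clones, at 11.69, 11.84, 12.09 and 11.44 in injection clones, at 12.18, 11.38 and 11.37 in male and at 11.67, 11.57 and 11.35 in female IVF-derived embryos. All groups overlapped. The difference from female embryos was 0.04 in fusion clones (95% interval -0.37 to 0.46) and 0.23 in injection clones (-0.23 to 0.70), so that a 2-fold change, 1 on the log2 scale, lies outside both intervals.

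A_52_P655663, 18.84 kb downstream of *Mcts2* and the furthest of the *H13* probes, is read from the same RefSeq transcript. It was at 9.0, 8.05, 7.38 and 7.41 in fusion clones, at 7.28, 8.76, 7.67 and 7.30 in injection clones and at 9.01, 8.14 and 5.91 in male IVF-derived embryos. All 3 female samples were at the floor of 4.0 and not well above background. Before normalization their processed intensities were 9.83, 13.1 and 7.10, where those of the other 11 samples ran from 60.9 to 529.2. Every other sample thus lay above the female ones. Of 35042 probes above background on at least 1 array, 48 (0.137%) were so on all 11 of those arrays and on no female one.

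Against female embryos this probe was higher in fusion clones by 3.96 on the log2 scale (standard error 0.42), at least 15.6-fold (limma adjusted p = 0.00587). The female samples, all at the floor, add no spread to the tests against them, and the folds set them to that floor. The probe entered these tests only through the other groups. In injection clones the difference was 3.75 (standard error 0.38), at least 13.5-fold (limma adjusted p = 0.0148). Male embryos were higher than female ones by 3.69 (standard error 0.80), at least 12.9-fold, and did not pass (adjusted p = 0.410 in limma). Fusion and injection clones differed by 0.21 (95% interval -0.92 to 1.34). With normexp background correction the log2 differences of fusion and injection clones from female embryos were 1.91 and 1.80 and stayed past the threshold. The fold thus depends on how dim values are handled. Without injection clone 3 the injection clones missed it (limma adjusted p = 0.0521).

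A_52_P341161, 1.28 kb upstream of the *Mcts2* probe, was at 7.25, 7.35, 5.84 and 4.0 in fusion clones and at 5.52, 7.96, 6.20 and 8.12 in injection clones. It was at 6.28, 7.88 and 7.59 in male and at 4.86, 4.0 and 7.08 in female IVF-derived embryos. The fusion clones alone ran from 4.0 to 7.35, and no comparison passed.

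*Mcts2*, which encodes a relative of a translation reinitiation factor, was read above background throughout. It was at 13.86, 13.50, 13.69 and 13.73 in fusion clones and at 13.57, 13.47, 14.36 and 14.28 in injection clones. It was at 13.02, 12.98 and 13.33 in male and at 13.80, 13.46 and 13.32 in female IVF-derived embryos. The clones differed from female embryos by 0.17 (95% interval -0.28 to 0.62) and 0.39 (-0.31 to 1.1). *Mcts1*, its X-linked parent gene, is close in sequence, and whether either probe also binds the other transcript was not tested. *Mcts1* was at 16.51 to 16.93 in fusion clones, 16.52 to 16.90 in injection clones, 14.77 to 15.70 in male and 16.24 to 16.48 in female IVF-derived embryos.

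Within arrays, the level of *H13* at A_51_P336998 minus that of *Mcts2* gave no shift between groups that passed. The shift was 0.03 between fusion and injection clones (exact permutation p = 0.943), -0.13 between fusion clones and female embryos (exact permutation p = 0.229), -0.16 for injection clones (exact permutation p = 0.714) and 0.53 between male and female embryos (exact permutation p = 0.200). A_52_P655663 minus A_51_P336998, a pair added after the values had been seen, was -4.13 to -2.82 in fusion clones, -4.42 to -3.08 in injection clones, -5.45 to -3.16 in male and -7.67 to -7.35 in female embryos. The female values are upper limits, since A_52_P655663 was at the floor there, and they carry over the difference of that probe given above. None of the added tests passed after adjustment, and 1 such test alone could not have.

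**Figure D3:**
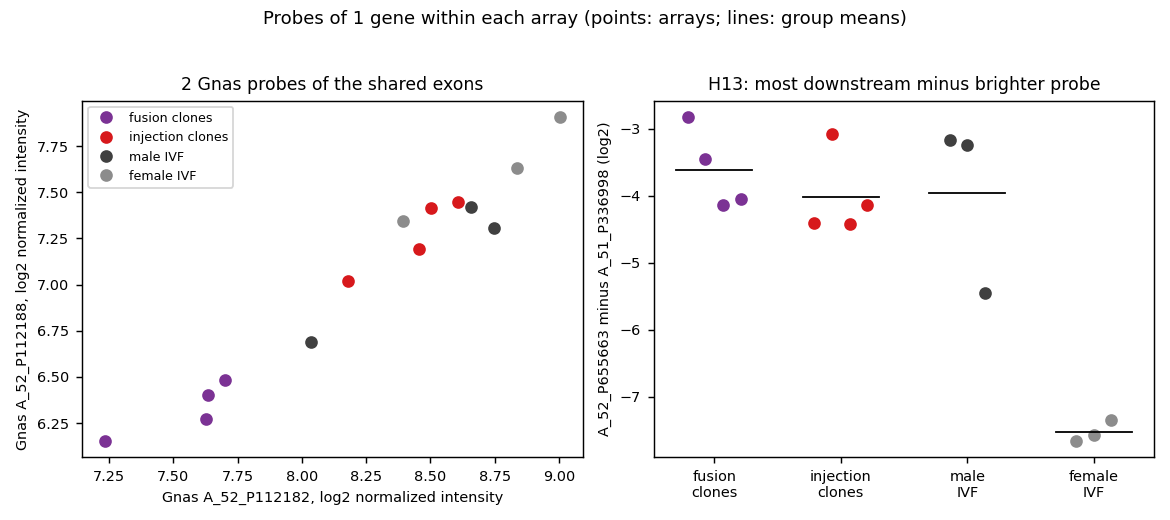
Left, level of the *Gnas* probe A_52_P112188 (y axis) against A_52_P112182 (x axis), both log2 normalized intensity, 1 point per array. Right, log2 level of the *H13* probe A_52_P655663 minus that of A_51_P336998 within each array (y axis) by group (x axis), with lines at group means. The fusion clones form the lower end on the left, and on the right the female IVF-derived embryos, in which A_52_P655663 was at the floor, lie between -7.67 and -7.35.

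At the third locus, *Nnat* was near background and varied between samples of 1 group. It was at 7.97, 4.70, 5.34 and 6.05 in fusion clones and at 6.18, 6.10, 4.0 and 6.19 in injection clones. It was at 4.0, 5.55 and 4.0 in male and at 5.90, 6.43 and 6.23 in female IVF-derived embryos. It was well above background on 11 arrays, with 1 of 3 in male embryos. Male embryos lay below all female ones, at a log2 difference of -1.67 (standard error 0.49), with an unadjusted p of 0.0162 and an adjusted p of 0.544 in limma, which did not pass. Differences of clones from female embryos had wide intervals, -1.98 to 1.64 after fusion and -2.01 to 0.87 after injection.

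*Blcap* at A_51_P255142 was at 13.36, 13.25, 12.67 and 13.17 in fusion clones and at 13.49, 12.68, 12.98 and 12.97 in injection clones. It was at 13.32, 13.79 and 14.04 in male and at 13.46, 13.54 and 13.84 in female IVF-derived embryos. All fusion clones lay below all female embryos, at a log2 difference of -0.50 (standard error 0.22, limma adjusted p = 0.208), and injection clones differed from them by -0.58 (adjusted p = 0.192) and overlapped them. A_52_P2520 and A_52_P386754 were above background on 9 and 8 arrays, ranged from 4.0 to 6.43 and from 4.0 to 7.76, and passed in no comparison. A_52_P386754 lies 2.11 kb from the *Nnat* probe, on the other side from the remaining *Blcap* probes, and the files describe it by a clone of both genes.

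The within-array difference of *Nnat* and *Blcap* at A_51_P255142 shifted by 0.32 between fusion and injection clones (exact permutation p = 0.800). Against female embryos it shifted by 0.33 in fusion clones (exact permutation p = 0.714) and by 0.01 in injection clones (exact permutation p = 1). In male embryos it was lower than in female ones, a shift of -1.77 (exact permutation p = 0.100, the smallest possible there).

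Counted over all members, 3 of 14 tested probes passed in fusion clones against female embryos, where 9.49% of all tested probes passed in limma's test at an adjusted p below 0.05. They were 1 higher probe (*H13* A_52_P655663) against a background of 4.32%, and 2 lower probes of *Gnas* against 5.17%. In injection clones 1 of 13 passed, again that *H13* probe, against 3.67%. In male against female embryos 0 of 12 passed, against 0.0593%. At the rule of the methods 2 of the 12 passed there, *H13* A_52_P655663 and *Nnat*, against 5.79% of probes. Groups that did not overlap were seen for 5 of 14 members in fusion clones against female embryos (25.8% of all probes), 1 of 13 in injection clones (20.9%) and 2 of 12 in male embryos (12.8%). Since both clone groups were set against the same female samples, the 2 counts are not independent.

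**Figure D4:**
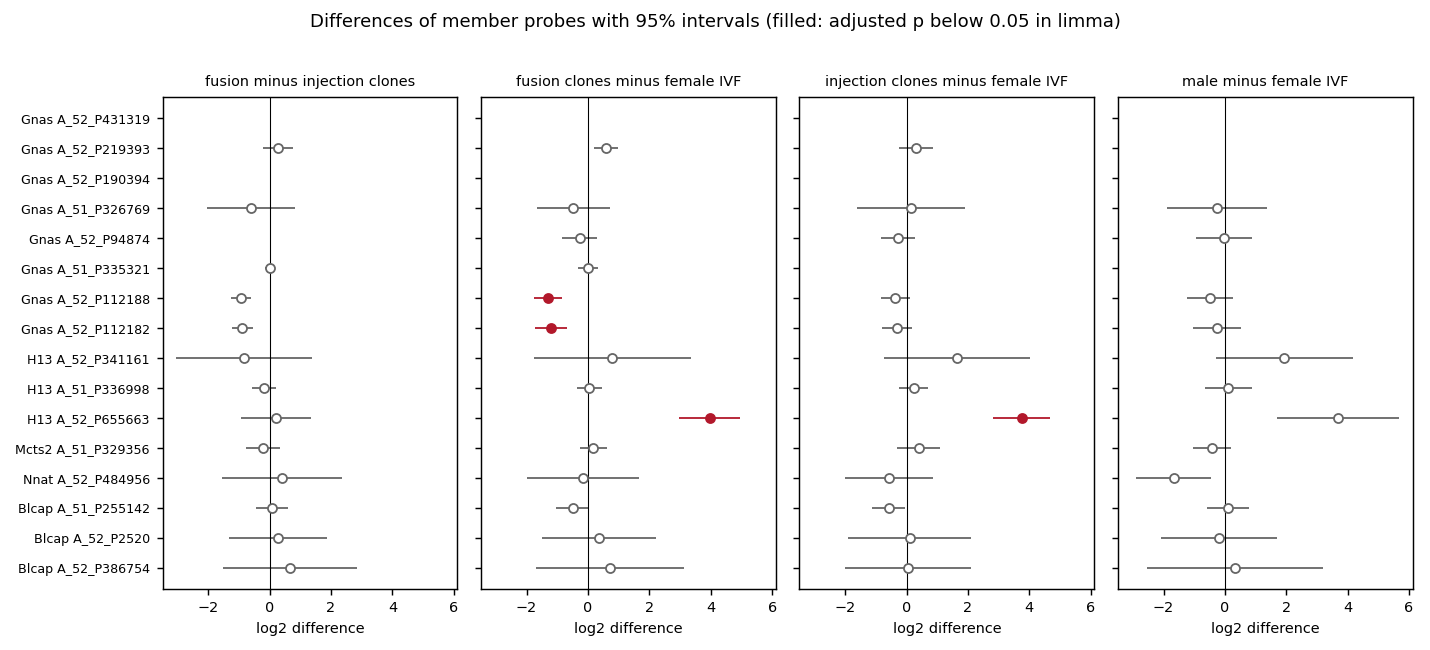
Log2 difference (x axes) of each member probe (y axis) in the 4 comparisons, with 95% intervals from limma. Filled points have an adjusted p below 0.05, and rows without a point were not tested because the probe was above background on no array of the groups. The filled points are *Gnas* A_52_P112188 and A_52_P112182 (fusion clones) and *H13* A_52_P655663 (both clone groups), each against female embryos.

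Genes around the members and in the pathway downstream of *Gnas* were also counted, each by its brightest probe. Of all tested probes, 0% passed between the methods, 9.49% in fusion clones, 3.67% in injection clones and 0.0593% in male embryos. Of genes of chromosome 2 near the loci that are not known as imprinted, 0 of 29 tested differed between the methods, 1 of 29 fell in fusion clones against female embryos, and 0 of 28 passed in injection clones and in male embryos. The gene that fell was *Ghrh*, growth hormone releasing hormone, near *Nnat* and *Blcap* (-1.12, standard error 0.19, limma adjusted p = 0.0230). It makes up 3.45% of the list, below the share of all probes. In injection clones *Ghrh* was at -1.17 (limma adjusted p = 0.0702). The median log2 difference of the list was -0.12 between the methods, -0.14 in fusion clones, -0.14 in injection clones and -0.12 in male against female embryos, where those of all probes were -0.01, -0.12, -0.08 and -0.03.

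In the Gs and cAMP pathway, which holds the G protein partners, adenylyl cyclases, phosphodiesterases, protein kinase A subunits and Epac factors, 0 of 43 genes passed between the methods and 1 of 43 in fusion clones against female embryos. This was *Gnb5*, a G protein beta subunit, which fell by 1.87 on the log2 scale (limma adjusted p = 0.0315). It makes up 2.33% of the list, where 9.49% of all probes passed. In injection clones 1 of 44 rose and 2 fell (6.82%, against 3.67% of all probes). *Pde3a*, a phosphodiesterase that breaks down cAMP, rose at least 3.54-fold (adjusted p = 0.0328 in limma). *Gnb4*, another beta subunit, was not above background in injection clones and was at least 18.6-fold lower there (adjusted p = 0.0128), and *Rapgef3*, which encodes the cAMP sensor Epac, fell by 2.72 (adjusted p = 0.0471). In male embryos 0 of 43 passed, with *Gnb4* at -3.75 from female ones (unadjusted p = 0.0011, adjusted p = 0.290 in limma) and above background on 1 of 3 arrays. The list's medians were -0.09 between the methods, -0.09 in fusion clones, -0.02 in injection clones and -0.11 in male embryos.

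Among imprinted genes of other loci, 0 of 56 passed between the methods. In fusion clones 3 of 59 rose and 2 fell against female embryos (8.47%, against 9.49% of all probes). Among them *Ube3a*, a ubiquitin ligase, was at 3.55 (limma adjusted p = 0.00566) and *Rasgrf1*, an exchange factor of Ras proteins, at -3.81 (adjusted p = 0.0103). Also called there were *Jade1* (2.17, limma adjusted p = 0.0237) and *Magel2* (-1.48, adjusted p = 0.0278). In injection clones 1 of 60 rose, *Ube3a* (2.95, adjusted p = 0.0452 in limma), and 1 fell, *Magel2* (-1.68, adjusted p = 0.0278). Together they are 3.33% of the list, against 3.67% of all probes. In male embryos 1 of 59 fell, *Rasgrf1*, which was not above background there and was at least 21.0-fold lower (adjusted p = 0.0231 in limma). The list's medians were -0.04, -0.14, -0.10 and 0.10 in the same order.

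Markers of primitive endoderm passed at 16.7% in fusion clones and 33.3% in injection clones against female embryos. Of all tested probes, 9.49% and 3.67% passed there. *Foxa2*, a transcription factor of that lineage, was above background on no fusion clone array and on every IVF array, and was at least 145.6-fold lower in fusion clones than in female embryos (limma adjusted p = 8.29e-05). It was the 1 of 6 markers that fell in fusion clones. In injection clones 2 of 6 fell, *Foxa2* and *Lama1*, a basement membrane laminin (-4.43, limma adjusted p = 0.0444), and 0 of 6 passed between the methods or in male embryos. The list's medians were 0.46 between the methods, -2.82 in fusion clones, -4.0 in injection clones and -0.64 in male embryos. The summed intensity of the 6 markers was 74122 to 163751 in fusion clones, 62259 to 137387 in injection clones, 72835 to 111093 in male and 106502 to 152818 in female IVF-derived embryos, and all groups overlapped. *Gata6*, at a mean log2 level of 16.41 in fusion and 16.08 in injection clones, makes up much of that sum. The sum therefore says little of dimmer markers such as *Foxa2* and *Lama1*. In a whole blastocyst, fewer cells of a type and less RNA per cell cannot be told apart, and the part of these markers and of *Elf5* in the *Gnas* and *H13* differences was not tested.

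The probes most like each member were sought over the 14 arrays by Pearson's r after the mean of each group was taken out, among 15758 to 15760 probes above background on all arrays. For *Gnas* A_52_P112182 they were *Metrn* (0.89), *Rab11fip4* (0.88) and *Itpripl1* (0.86). For *H13* A_51_P336998 they were *Rps19*, *Spcs2* and *Psmb3* (0.88 to 0.89), and for *Mcts2* they were *Rras2*, *AI662270* and *Atf6* (0.86 to 0.90). *Nnat* was most like *Camk2n2* (0.90), and *Blcap* was most like *Rnf14* (0.95). These values describe likeness within groups, with the same libraries behind every probe.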

How the data were processed

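The authors deposited, per array, the scanner output of Feature Extraction (version 10.5.1.1 for clones, 9.5.3.1 for IVF-derived embryos), with a background-subtracted intensity per spot on a linear scale that is not normalized between arrays, and a table of log2 values for these arrays. RNA had been amplified in 2 rounds, per the labels. The 1639 control spots were left out and outlier spots treated as missing. After quantile normalization of all 14 arrays together, values under 16 were raised to 16, log2 was taken, and spots of a probe were averaged. A probe was tested if some array of either group showed it well above background (12 to 14 of the 16 members), which was done with limma 3.58.1 (lmFit and eBayes, R 4.3.3), with Benjamini-Hochberg adjustment over all tested probes. The test was tried on simulated data. Where all samples of a group lay at the floor, they add no spread to a test, and a fold given as "at least" sets them to the floor. The number of arrays limits the precision. Male and female arrays of the same number had weakly correlated deviations from their group means (r = 0.109, 0.128 and 0.110). This does not establish pairs, and the labels do not name a shared litter or day. The fit reported did not pair them. With the replicate block 0 members were called, as without it, and 0 of all probes in place of 19. The members, lists and tests were chosen with earlier results of these data known. All member probes are named, and of each list at most 4 genes per comparison, those with the smallest p in each direction. The sequences are from RefSeq (GRCm38.p6), in which 32722 gene probes had a symbol. Alternatives were normexp, scaling to the 75th percentile, the deposited log2 values, floors of 1 and 32, other filters, a fit of all 4 groups, the replicate block, a variance trend and leaving out each array.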

Additional observations from a re-analysis of the deposited data

Results flagged for a closer look

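Of 16 clone groups of 4 arrays, each for 1 member probe above background on all of them, 2 held a sample far from the others, where chance gives about 1 in 20. The *Gnas* probe A_52_P112182 was at 7.2327 in fusion clone 4 (7.23), the lowest of the fusion clones, with a gap of 0.838 of the range. The *H13* probe A_51_P336998 was at 11.8196 in fusion clone 1 (11.82), the highest of the fusion clones, with a gap of 0.846 of the range. Without fusion clone 4 the *Gnas* difference from female embryos was -1.09 (limma adjusted p = 0.0550).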

How the results depend on the processing

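Of the values of single member probes under the alternatives, 799 kept direction and call, 15 no longer passed, 2 newly passed and 50 changed sign, of which 0 had passed or did so then. Of 52 probes and comparisons, 46 kept their call and 27 their direction too under every alternative run. Called members in fusion clones against female embryos, 3, became 0 with the replicate block and 1 with a variance trend. The count was 2 in the deposited log2 values. It was 4 with no filter on dim probes, where *Gnas* A_52_P219393 also passed (limma adjusted p = 0.0341). With an array left out it was 1 to 3 (1 without fusion clone 2, when 1123 of all probes passed). The 1 member called in injection clones became 0 with the replicate block and 0 to 1 with an array left out (0 without injection clone 3, when 171 of all probes passed). In male against female embryos 0 became 1 with all 4 groups in one fit (*H13* A_52_P655663, adjusted p = 0.0383 in limma) and 2 at the rule of the methods, and stayed at 0 with an array left out. Between the methods the count stayed at 0 under every alternative. Under none did a pair of probes pass, which shows no stability, since 1 pair alone could not have passed. Over the alternatives, probes called of all tested ran from 0 to 4332 (3079 in the fit reported) in fusion clones against female embryos, from 0 to 3098 (1205) in injection clones, from 0 to 205 (19) in male embryos and from 0 to 11 (0) between the methods. With the replicate block 0 of all probes passed in each comparison, and against female embryos clone 4 of either method then has no partner and adds nothing. Same-numbered samples showed no common pattern of deviation in the clone comparisons (r from -0.063 to 0.108), and the number was taken as only a name there. The highest value, of fusion and injection clone 3, was close to those of male and female embryos. *Gnas* A_52_P112188 passed in fusion clones against female embryos under 14 of 17 alternatives (-1.44 to -0.86, limma adjusted p = 0.00486 to 0.135), A_52_P112182 under 8 of 17 (-1.37 to -1.02, adjusted p = 0.00817 to 0.151), and *H13* A_52_P655663 under 16 of 17 (1.91 to 4.78). The differences that changed sign were as follows. With normexp the log2 difference was -0.15 for *H13* A_51_P336998 in fusion clones, -0.082 for *Mcts2* A_51_P329356 in fusion clones, 0.013 for *Nnat* A_52_P484956 in fusion clones and 0.11 for *Gnas* A_52_P94874 in male embryos. With scaling to the 75th percentile the log2 difference was -0.019 for *H13* A_51_P336998 in fusion clones, 0.22 for *Nnat* A_52_P484956 in fusion clones and 0.23 for *Gnas* A_52_P94874 in male embryos. In the deposited log2 values the log2 difference was -0.094 for *Blcap* A_52_P2520 between the methods, 0.25 for *Nnat* A_52_P484956 in fusion clones, 0.97 for *Gnas* A_52_P94874 in male embryos, 1.41 for *Blcap* A_52_P2520 in male embryos and -0.10 for *Blcap* A_52_P386754 in male embryos. With a floor of 1 the log2 difference was -0.73 for *Blcap* A_52_P2520 between the methods, 0.55 for *Gnas* A_52_P94874 in male embryos, 0.96 for *Blcap* A_52_P2520 in male embryos and -0.17 for *Blcap* A_52_P386754 in male embryos. With a floor of 32 the log2 difference was -0.080 for *Blcap* A_52_P2520 in injection clones and -0.034 for *Blcap* A_52_P386754 in injection clones. With an array left out, *Blcap* A_51_P255142 ran from -0.032 to 0.24 between the methods and -0.055 to 0.30 in male embryos. *Blcap* A_52_P2520 ran from -0.016 to 1.14 in fusion clones, -0.043 to 0.79 between the methods, -0.42 to 0.87 in injection clones and -0.58 to 0.58 in male embryos. *Blcap* A_52_P386754 ran from -0.026 to 1.45 in fusion clones, -0.088 to 1.22 between the methods, -0.50 to 0.79 in injection clones and -0.80 to 1.06 in male embryos. *Gnas* A_51_P326769 ran from -0.40 to 0.61 in injection clones and -0.81 to 0.21 in male embryos. *Gnas* A_52_P94874 ran from -0.27 to 0.24 in male embryos. *H13* A_51_P336998 ran from -0.048 to 0.11 in fusion clones and -0.16 to 0.25 in male embryos. *H13* A_52_P655663 ran from -0.14 to 0.55 between the methods. *Nnat* A_52_P484956 ran from -0.82 to 0.27 in fusion clones and -0.25 to 0.84 between the methods. Leaving out an array also tests with fewer arrays. Other causes of these changes were not tested.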
